A study of Caenorhabditis elegans with 2 samples.

Results

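The regions described here were the ChIP-seq peaks of eGFP-tagged NHR-11 on the X chromosome of *Caenorhabditis elegans* whose summits lay more than 500 bp from every annotated tRNA, snRNA, snoRNA, rRNA and miRNA gene. Of 13299 peaks in the list called on both replicates pooled, 13271 lay on the 6 nuclear chromosomes and 2636 of those on X. The distance rule removed 208 X peaks and left 2428, and the same rule left 10216 peaks on the 5 autosomes. The samples were 2 biological replicates of whole L2 larvae, labelled as pooled male and female, of strain OP305 (unc-119(ed3) III; wgIs305), in which a tagged copy of nhr-11 is carried by an integrated transgene in an unc-119 mutant background. Both replicates thus belonged to 1 group, every animal carried the same alleles, and no untagged strain, other factor or other stage was among the samples analysed here. The peaks pool all tissues of the larva, so that binding in fewer cells and weaker binding per cell cannot be told apart, and whether a peak was particular to NHR-11 was not tested. Each peak carried a signal value given by the authors' peak caller, which is used here to rank peaks and which had no stated scaling to read depth.

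NHR-11 belongs to the nuclear hormone receptors, zinc-finger transcription factors that classically bind short hexamers related to AGGTCA, alone or in pairs, and that form an unusually large family in nematodes. The worm X chromosome carries few genes expressed in the germline and is the target of dosage compensation: in animals with a pair of X chromosomes, a condensin-containing complex is recruited to discrete sites on X, named recruitment elements on X (rex), and spreads from them to lower transcription. Many rex sites hold copies of a GC-rich motif whose core reads GCGCAGGG. Short RNA genes attract peaks in many ChIP-seq experiments, and peaks beside them were kept apart here.

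Several of the strongest X peaks shared that dosage compensation core. The 8-letter sequence GCGCAGGG, searched on both strands, lay whole within 50 bp of the summit in 8 of the 44 X peaks that passed the authors' reproducibility threshold (18.2%, 95% Wilson interval 9.51% to 31.96%). It lay in none of the 136 thresholded autosomal summits (0%, upper bound 2.75%). Windows centred 300 bp to either side of the same 44 X summits held it 0 times in 88, and 0.0388% of windows of the same length tiled over all of X held it. The core belonged to a set of 20 motifs chosen with earlier results of these data known, and its share is given as a description. The 8 summit windows are printed to show the core, which is in capitals, and the letters it shares around it. All are read 5′ to 3′ from the RefSeq genome on build WBcel235 (ce11), on the strand that carries the core as written, 50 bp to each side of the summit, and named by the gene with the nearest protein-coding 5′ end.

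Y41G9A.17 (chrX:2997050-2997150, minus strand): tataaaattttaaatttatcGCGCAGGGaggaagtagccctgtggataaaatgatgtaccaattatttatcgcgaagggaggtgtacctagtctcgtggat
F20B6.9 (chrX:4209200-4209300, minus strand): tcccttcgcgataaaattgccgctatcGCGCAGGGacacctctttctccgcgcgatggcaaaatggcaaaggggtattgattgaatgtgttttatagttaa
W02H3.3 (chrX:11094139-11094239, minus strand): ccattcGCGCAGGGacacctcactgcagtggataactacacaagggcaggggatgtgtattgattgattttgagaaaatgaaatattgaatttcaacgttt
gtr-1 (chrX:806653-806753, plus strand): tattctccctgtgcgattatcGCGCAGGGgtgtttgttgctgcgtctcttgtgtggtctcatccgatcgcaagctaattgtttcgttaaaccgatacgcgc
cest-16 (chrX:6296511-6296611, plus strand): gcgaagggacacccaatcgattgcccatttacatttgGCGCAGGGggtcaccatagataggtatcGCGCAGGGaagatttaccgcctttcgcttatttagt
F22H10.2 (chrX:16682091-16682191, minus strand): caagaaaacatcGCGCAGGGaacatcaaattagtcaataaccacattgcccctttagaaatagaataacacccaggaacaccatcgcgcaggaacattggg
ins-39 (chrX:1345002-1345102, plus strand): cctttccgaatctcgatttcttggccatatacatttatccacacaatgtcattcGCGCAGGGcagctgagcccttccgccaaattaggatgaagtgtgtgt
T24D8.6 (chrX:2364889-2364989, minus strand): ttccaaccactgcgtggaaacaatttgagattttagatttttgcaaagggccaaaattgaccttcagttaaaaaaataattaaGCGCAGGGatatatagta

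The peak near Y41G9A.17 had a pooled signal of 84.2, with 59.2 in replicate 1 and 24.3 in replicate 2, and ranked 6 among all nuclear peaks of the pooled list. Its summit lay in an intron of Y41G9A.17, 2652 bp downstream of the 5′ end, and the peak held 2 copies of the core, the nearer one 23 bp from the summit. The intergenic peak near F20B6.9 had 62.2 in the pooled list, 36.2 in replicate 1 and 22.1 in replicate 2. Both had the higher value in the list of replicate 1, as did the median of the 44 thresholded X peaks (22.8, against 15.1 in replicate 2). In the order named, these peaks ranked 23 and 38 in the whole list of replicate 1, and 51 and 63 in that of replicate 2.

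Others had the higher value in the list of replicate 2. The intergenic peak near W02H3.3, with 2 copies of the core, had 59.98 in the pooled list, 27.8 in replicate 1 and 33.1 in replicate 2. The peak downstream of the 5′ end of gtr-1 had 58.6, 22.3 and 36.3 in the pooled list, replicate 1 and replicate 2, and the peak nearest to F22H10.2 had 39.4, 16.95 and 21.8 in that order.

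The peak named for cest-16, a carboxylesterase gene, lay in an intron of mom-1, which encodes a Porcupine homologue needed to make Wnt ligands, and had both of its core copies inside the summit window, the nearer one 6 bp from the summit. Its signal was 45.5 in the pooled list, 22.7 in replicate 1 and 26.4 in replicate 2. The peak upstream of ins-39, an insulin-like peptide gene, had 38.8, 20.4 and 13.2 in the pooled list, replicate 1 and replicate 2, and that near T24D8.6, the weakest of the 8, had 29.03, 16.7 and 8.06. All 8 were present in both replicate lists, as were 177 of 180 thresholded nuclear peaks away from short RNA genes, which were selected for reproducibility. Of the 8, only the ins-39 peak lay within a promoter window. Such a window was here taken as 1000 bp before to 500 bp past the 5′ end of any protein-coding gene.

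Counted over whole peaks rather than 50 bp around summits, the core lay in 12 of 44 thresholded X peaks (27.3%, 95% interval 16.3% to 41.8%) and in 0 of 136 thresholded autosomal peaks (upper bound 2.75%). The 4 added peaks lay upstream of nspc-17, near F19H6.5, in a coding exon of the polyketide synthase gene pks-1, and near B0302.2, with pooled signals of 56.2, 53.3, 45.4 and 28.8. Below the threshold the core was rare: it lay within 50 bp of 0 of 795 summits in the upper tier of the remaining X peaks, which were cut by signal into 3 tiers of equal number, 2 of 795 in the middle tier and 1 of 794 in the lower tier, and anywhere in 7, 3 and 4 peaks of those tiers. Both middle-tier summits overlapped or neighboured thresholded peaks that held the core themselves, near Y41G9A.17 and F20B6.9. The middle-tier peak near Y41G9A.17 shared core copies with the thresholded peak it overlapped. An upper-tier peak (pooled signal 16.9) overlapped the thresholded peak in pks-1 and held the same core copy, so these peaks do not all hold separate copies. Another of the 7 upper-tier peaks, with a pooled signal of 19.7, lay in an intron nearest to lin-14, a heterochronic regulator.

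**Figure D1:**
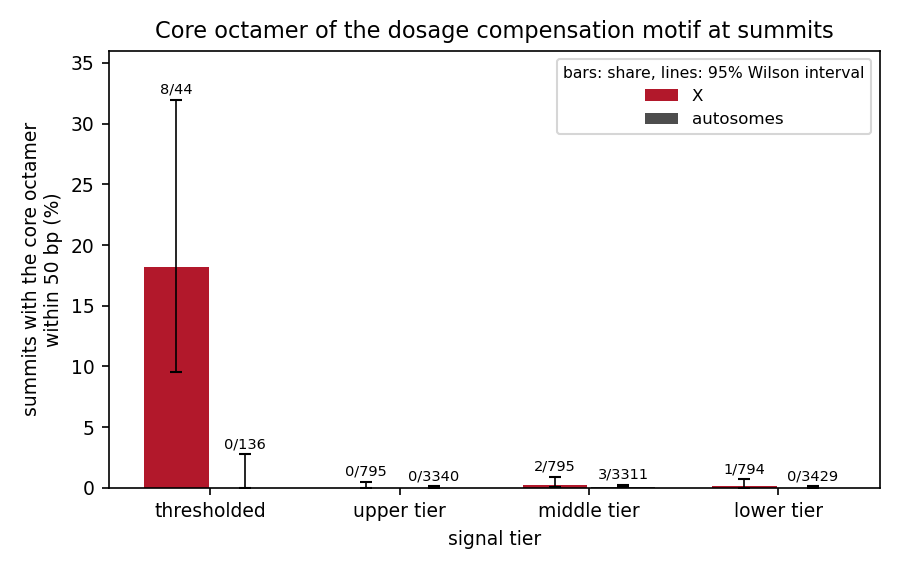
Share of summits with the whole core octamer within 50 bp (y axis, %) in each signal tier (x axis), for X peaks (red) and autosomal peaks (grey) away from short RNA genes; lines are 95% Wilson intervals and the fractions give the counts. The bar at 8 of 44 thresholded X summits stands alone, with 0 of 136 in the thresholded autosomal peaks beside it.

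The same peaks were also counted starting from the sequence, so the counts that follow are not independent of those above. The core occurred 81 times on X, or 4.57 times per Mb, and 233 times on the autosomes, or 2.82 times per Mb. On X, 31 of the 81 occurrences lay in a pooled peak (38.3%, 95% interval 28.4% to 49.2%) and 18 in a thresholded one (22.2%, 14.5% to 32.4%). Pooled peaks covered 6.39% of X and thresholded ones 0.172%. The same kinds of peak covered 5.54% and 0.0939% of the autosomes. On the autosomes, 19 of 233 lay in a pooled peak (8.15%, 5.28% to 12.4%) and 2 in a thresholded one (0.858%, 0.236% to 3.08%). Those 2, and 2 of the 18 on X, were in peaks near short RNA genes. In all, 63 of the 81 occurrences on X were in no thresholded peak, so the 8 letters alone did not mark a strong peak.

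The letters around the core differed between these groups. A T followed by a C stood directly before the core in 12 of the 18 occurrences in thresholded X peaks, in 1 of 13 in other X peaks, in 6 of 50 in no peak on X, and in 6 of 233 on the autosomes. The longer form with T and C before and A after occurred in 10, 1, 2 and 2 of them, in the same order. The windows named for Y41G9A.17, F20B6.9, W02H3.3, cest-16 and F22H10.2 each hold a copy of that form. These context letters were read from the peaks they describe, and are given as a description.

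The core was also present at the summits of each replicate's own list. In the list of replicate 1 alone, it lay within 50 bp of 6 of the 44 strongest X summits away from short RNA genes and 0 of the 136 strongest autosomal ones; in the list of replicate 2 the counts were 5 of 44 and 0 of 136. No base sequence of 25 bp to each side of the 44 thresholded summits occurred more than once in the genome, so none of these peaks lay in an exact repeat of that length. Whether the dosage compensation complex itself was bound at these sites in these larvae was not tested.

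The 44 thresholded X peaks had pooled signals of 27.5 to 99.5 (median 38.5), against 27.4 to 203 (median 31.9) for the 136 thresholded autosomal peaks. Thresholded peaks made up 1.81% of the X peaks (95% interval 1.35% to 2.42%) and 1.33% of the autosomal ones (1.13% to 1.57%); over all nuclear peaks away from short RNA genes the share was 1.42%. X held 24.4% of the thresholded peaks (44 of 180; 18.7% to 31.2%) and 19.2% of all peaks away from short RNA genes, and made up 17.7% of the nuclear genome and 13.7% of its protein-coding genes. These intervals cover counting error only, and neighbouring peaks are not independent of each other.

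Both replicate lists held a peak overlapping each of the 44 thresholded X peaks, and 133 of the 136 thresholded autosomal ones. The threshold selects for reproducibility, so these overlaps were largely set by it. Signals at the X overlaps ran from 13.3 to 62.5 in replicate 1 (median 22.8) and from 6.61 to 44.0 in replicate 2 (median 15.1). Across these 44 peaks the signals of the replicates had a Pearson correlation of 0.59 on the log2 scale and a Spearman correlation of 0.52; 2 pairs of overlapping pooled peaks, at ftt-2 and near C30E1.4, each shared a replicate peak. Over all 1183 X peaks found in both lists the Spearman correlation was 0.23, and within the upper tier it was near 0 (n = 560). The tiers are bands of the pooled signal, which combines both replicates, and a narrow band lowers the correlation within it, so these values do not compare how well the replicates matched in strong and weak peaks.

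**Figure D2:**
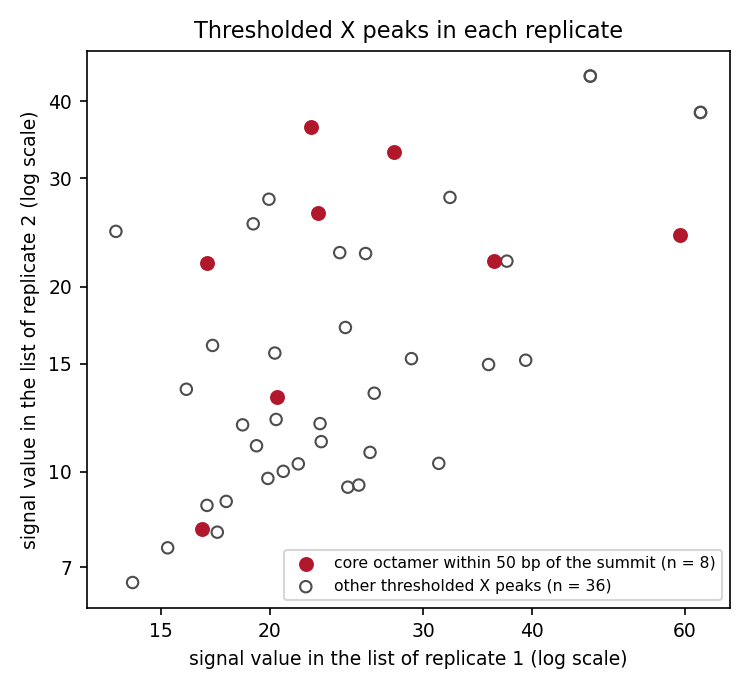
Signal value in the list of replicate 1 (x axis, log scale) and of replicate 2 (y axis, log scale) for the 44 thresholded X peaks; red points have the core octamer within 50 bp of the summit and open points do not. The 8 red points are spread over the range of both replicates, and overlapping peaks that share a replicate peak fall on the same point.

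Over all 2428 X peaks, 48.7% overlapped a peak in both replicate lists (95% interval 46.7% to 50.7%), close to the share of 50% over all nuclear peaks away from short RNA genes and the 50.3% on the autosomes. The share was 70.4% in the upper tier, 41.8% in the middle tier and 31.1% in the lower tier. A further 31.8% overlapped a peak of replicate 1 only, 16.3% one of replicate 2 only, and 77 peaks (3.17%) overlapped none. The pooled list was deposited as peaks together with background for the reproducibility step, and the lower tiers are to be read as such.

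The strongest X peak (pooled signal 99.5; 62.5 in replicate 1 and 38.4 in replicate 2) had its summit in C30E1.9, annotated as a non-coding RNA gene, 6901 bp from the nearest protein-coding 5′ end, that of C30E1.4. The next strongest (88.1, with 46.7 and 44.0) lay 513 bp upstream of ftt-2, which encodes a 14-3-3 adaptor protein, and in F52D10.7, also annotated as a non-coding RNA gene. Their summits are printed, 30 bp to each side on the plus strand, because they head the list and are unlike each other in base composition, the first with 21.8% G and C over the 50 bp to each side and the other with 51.5%.

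C30E1.4 (chrX:16930807-16930867): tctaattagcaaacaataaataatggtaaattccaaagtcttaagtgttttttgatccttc
ftt-2 (chrX:11605902-11605962): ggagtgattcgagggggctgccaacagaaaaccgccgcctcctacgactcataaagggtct

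Among the 20 strongest X peaks, 6 lay in a promoter window. Besides ftt-2 these windows belonged to puf-9 (pooled signal 57.7; 37.5 in replicate 1 and 22.01 in replicate 2), which encodes a Pumilio-family RNA-binding protein, to nspc-17 (56.2; 39.4 and 15.2), to fbxb-58 (42.9; 19.1 and 25.3), an F-box gene, to nipi-3 (40.5; 26.1 and 10.8), a Tribbles-like pseudokinase of innate immunity, and to bet-2 (39.9; 26.4 and 13.4), a bromodomain protein. The peak nearest to ain-1, which encodes a GW182-family protein of the microRNA silencing complex, lay 1002 bp upstream of its 5′ end, just outside the window (51.1; 19.96 and 27.7).

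The other 14 lay outside promoter windows, at distances from 1002 bp (ain-1) to 15153 bp (the exonic summit in pks-1, nearest to the 5′ end of C41A3.2). Apart from the peaks already described, they included intergenic summits nearest to ZK899.6 (pooled signal 60.2; 32.2 in replicate 1 and 27.9 in replicate 2), C45B2.8 (45.3; 31.3 and 10.3), gpcp-1 (44.1; 29.1 and 15.3), C02B4.3 (41.5; 24.4 and 17.2) and K02D3.1 (41.2; 24.1 and 22.7). Their spread in replicate 2 was wide. C45B2.8 ranked 54 in the whole list of replicate 1 and 660 in the whole list of replicate 2.

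Strong X peaks lay farther from protein-coding 5′ ends than those of all autosomes pooled. Of the 44 thresholded X summits, 17 (38.6%, 95% interval 25.7% to 53.4%) lay in a promoter window, against 81 of 136 (59.6%, 51.2% to 67.4%) on the autosomes, and 20 (45.5%, 31.7% to 59.9%) were both outside promoter windows and intergenic, against 28 of 136 (20.6%, 14.6% to 28.1%). The intervals of the promoter shares overlapped slightly and those of the intergenic shares did not. Single autosomes did overlap X in the intergenic share, with 8 of 23 on chromosome IV (34.8%, 18.8% to 55.1%) and 9 of 29 on chromosome V (31.03%, 17.3% to 49.2%). In the promoter share, chromosomes II (54.3%, 38.2% to 69.5%), III (61.9%, 40.9% to 79.2%) and IV (52.2%, 33.0% to 70.8%) overlapped X. Chromosome I did not, with 22 of 28 (78.6%, 60.5% to 89.8%). Bases outside promoter windows and intergenic made up 29.03% of X and 16.5% to 24.7% of single autosomes. The median distance to a protein-coding 5′ end was 1279 bp for thresholded X peaks and 492 bp for thresholded autosomal ones. X is also the chromosome with the lowest gene density, 154 protein-coding genes per Mb, and promoter windows covered 26.9% of its bases, against 29.4% to 36.8% of the bases of single autosomes. The 44 and 136 strongest peaks of each replicate's own list gave promoter shares of 34.1% on X and 59.6% on the autosomes, the same in replicate 1 and in replicate 2.

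The share in promoter windows fell from the strongest tier to the weakest. On X it was 35.8% in the upper tier, 33.0% in the middle tier and 28.1% in the lower tier (95% interval 25.1% to 31.3%), the last close to the share of X bases in such windows. Over all 2428 X peaks it was 32.4% (30.6% to 34.3%), and over all autosomal peaks 40.6% (39.6% to 41.5%). All 17 thresholded X peaks in promoter windows lay upstream of the nearest 5′ end, as did 216 of the 285 in the upper tier. Summits in coding exons rose as signal fell, with 1 of 44 thresholded X peaks (2.27%), 10.7% of the upper tier, 16.6% of the middle tier and 19.3% of the lower tier, against 20.1% of X bases. Annotated bases that are neither coding, UTR nor intron held 7 of 44 thresholded X summits (15.9%, 7.93% to 29.4%), all in non-coding RNA genes. These included the summits upstream of ftt-2, puf-9 and syd-2. Such bases held 4.78% of the upper tier and 6 of 136 thresholded autosomal summits, and made up 3.42% of X. The distance rule did not cover these non-coding RNA genes.

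**Figure D3:**
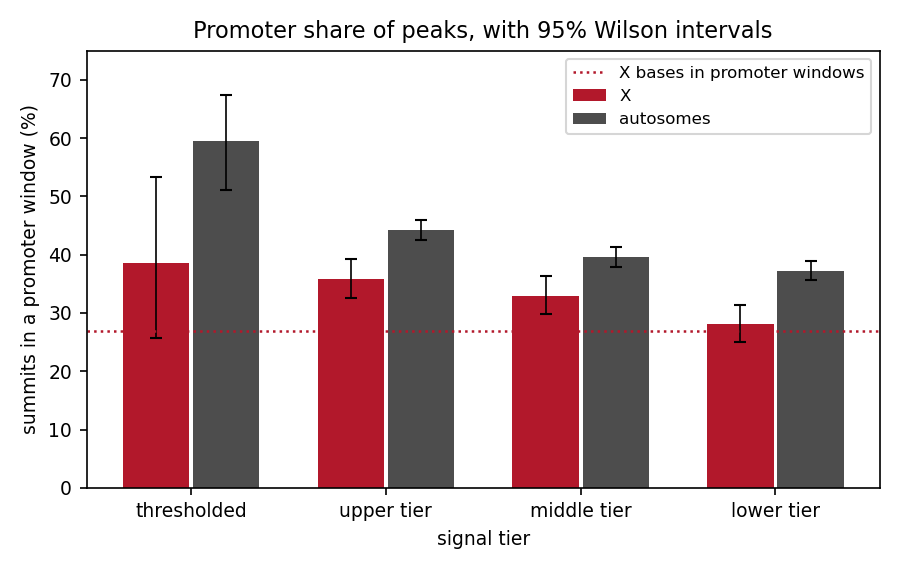
Share of summits in a promoter window (y axis, %) in each signal tier (x axis) for X peaks (red) and autosomal peaks (grey) away from short RNA genes, with 95% Wilson intervals; the dotted line marks the 26.9% of X bases in such windows. The X share is below the autosomal share in every tier and comes down to the dotted line in the lower tier.

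Thresholded X peaks with the core lay mostly outside promoter windows, though the farthest from a 5′ end had no core within 50 bp. The core was at 7 of 27 summits outside promoter windows (25.9%, 13.2% to 44.7%) and at 1 of 17 inside them (5.88%, 1.05% to 26.98%), and these intervals overlap. Of the 8 with the core within 50 bp, 1 lay in a promoter window, and their median distance to a 5′ end was 2627 bp (range 631 to 3997 bp). Of the other 36, 16 lay in promoter windows, and the median was 1052 bp (127 to 15153 bp). Their pooled signals overlapped widely, from 29.03 to 84.2 (median 52.04) with the core and from 27.5 to 99.5 (median 36.6) without it. In replicate 1 the medians were 22.5 with the core and 22.9 without, and in replicate 2 they were 23.2 and 13.5.

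Summits of the strong X peaks were rich in G and C. Over 50 bp to each side, thresholded X summits averaged 44.6% G and C, and windows of the same length 300 bp away averaged 34.6%, a difference of 10.02 points (SE 1.63 over 44 peaks), with the summit higher in 38 of 44. The difference was 6.90 points (SE 1.04) at the 136 thresholded autosomal summits, which with these errors was not clearly apart from X, 2.44 points (SE 0.39) in the upper tier of X, 1.22 (SE 0.35) in the middle tier and 0.75 (SE 0.36) in the lower tier. Among thresholded X peaks it was 8.49 points (SE 2.06, n = 27) outside promoter windows and 12.5 points (SE 2.66, n = 17) inside them, so the rise was not confined to either place. Peaks with the core averaged 44.3% at summits and 30.3% in flanks, and the other 36 averaged 44.7% and 35.6%. The strongest peak of all, in C30E1.9, ran the other way, with 21.8% at the summit and 37.6% in the flanks.

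**Figure D4:**
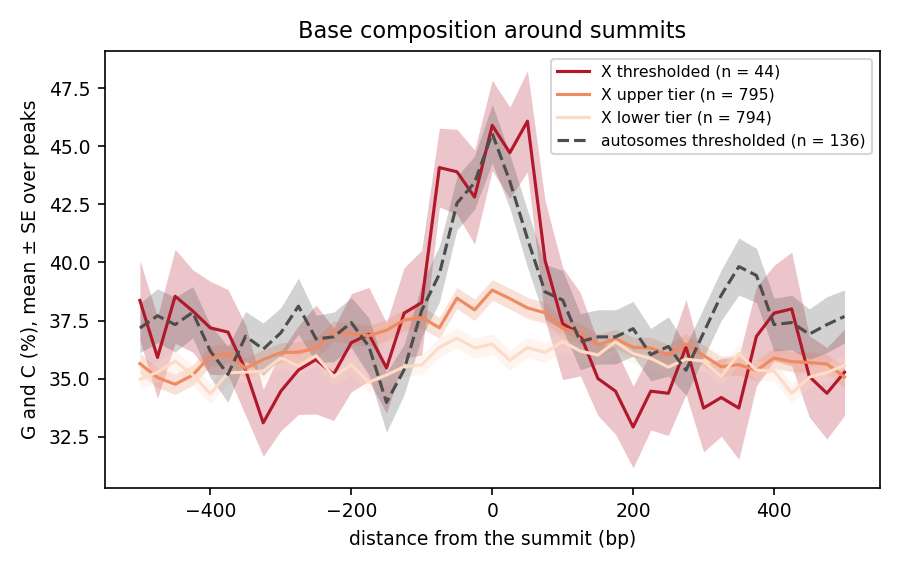
Mean share of G and C in windows 25 bp long (y axis, %) against distance from the summit (x axis, bp), with SE over peaks as bands, for X peaks of 3 tiers (solid lines) and thresholded autosomal peaks (dashed). Thresholded X and autosomal peaks both rise within about 100 bp of the summit, and the upper and lower tiers of X stay close to their flanks.

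The set of 20 motifs was chosen with earlier results of these data known. Those of nuclear receptors lay near the share of tiled windows at thresholded and upper-tier X summits. The classical hexamer AGGTCA lay within 50 bp of 1 of 44 thresholded X summits and of 3.65% of the upper tier (95% interval 2.55% to 5.19%), with 2.64% of windows tiled over X. The related AAGTCA lay in 2 of 44 and 4.91%, with 5.39% of tiled windows; in the middle tier it lay in 59 of 795 (7.42%, 5.80% to 9.46%), with 5.66% of flanks, and over all X summits in 6.22%, against 4.25% of autosomal ones and 4.61% of autosomal windows. The variant AGTTCA lay in 1 of 44 and 7.30%, with 7.45%. The steroid receptor hexamer AGAACA lay in 4 of 44 and 7.80%, with 7.79%. All these motifs were read on both strands, and the absence of a match says only that the letters are not in the window.

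The GA repeat GAGAGA lay in 11.8% of upper-tier X summits (9.76% to 14.3%), 6.73% of their flanks and 4.91% of tiled windows, and in 6 of 44 thresholded X summits; on the autosomes it lay in 31 of 136 thresholded summits. The GATA site TGATAA lay in 1 of 44 thresholded X summits (0.402% to 11.8%), in 9.81% of the upper tier, 10.3% of the middle tier and 9.32% of the lower tier, with 9.96% of tiled windows. The 9-letter sequence CTGCGTCTC, added to the set after the summits had been read, lay in 5 of 44 thresholded X summits (11.4%, 4.95% to 24.0%) and 8 of 136 autosomal ones (5.88%, 3.01% to 11.2%), with 0.174% of X windows and 0.437% of autosomal windows. It was thus seen on both kinds of chromosome, whereas the core was seen in none of the 136 thresholded autosomal peaks away from short RNA genes.

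Read without a motif in mind, the hexamer most raised at the 839 thresholded and upper-tier X summits over their flanks was AGAGAG, at 12.3% of summits and 5.30% of flanks. It was followed by GAGAGA at 11.9% of summits and 6.97% of flanks, by AGAAGA at 15.6% and 10.97%, by CAGAGA at 9.30% and 4.83%, and by AAGAGA at 14.4% and 9.95%. Apart from the C in CAGAGA, all 5 consist of A and G, and the 5 most lowered were rich in A and T. These were AAAATT at 28.2% of summits and 36.6% of flanks, TTAAAA at 17.04% and 24.4%, AAAATA at 23.5% and 30.6%, AAAAAC at 22.2% and 28.96%, and TAAAAA at 21.8% and 28.5%. AGAGAG was as frequent at autosomal summits of the same tiers, at 11.5%. Among the 44 thresholded summits alone, the most raised hexamers were CCCTGC (12 of 44, 0% of flanks, 4 of 136 autosomal summits), CCTGCG (11 of 44, 0% of flanks, 6 of 136), CTGCGC (10 of 44, 0% of flanks, 5 of 136), ACGCAG (11 of 44, 2.27% of flanks, 18 of 136) and GCGCGA (10 of 44, 1.14% of flanks, 6 of 136). The first 3 overlap each other in the core, read on its other strand.

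The peaks were spread evenly along X. The left, central and right of 3 equal parts of the chromosome held 32.5%, 35.6% and 31.9% of them, and 31.9%, 35.8% and 32.3% of the protein-coding genes. On the autosomes, whose gene-rich centres are flanked by arms, the central part held 37.7% to 43.2% of peaks. Peaks numbered 137 per Mb on X and 110 to 143 per Mb on single autosomes.

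In bins of 1 Mb, whole bins held 98 to 163 X peaks. Thresholded peaks numbered 14, 14 and 16 in the 3 parts, with none in the eighth bin and 6 in the bin that begins at 16 Mb, where the strongest peak lay. The median gap between neighbouring summits was 4194 bp, 360 gaps were under 1000 bp, and 174 neighbouring pairs overlapped, so single peaks are not all separate sites. The longest stretch without a summit ran from 25708 to 186542, near the left end.

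**Figure D5:**
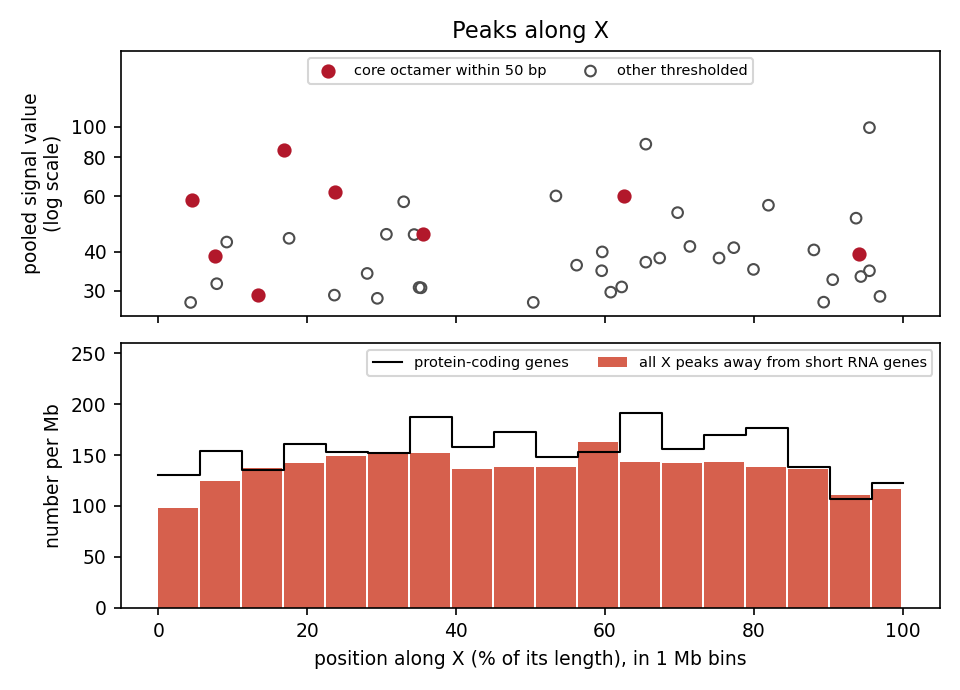
Above, pooled signal (y axis, log scale) of the 44 thresholded X peaks by position (x axis, % of the length of X), red with the core octamer within 50 bp and open without. Below, all 2428 X peaks away from short RNA genes (bars) and protein-coding genes (line) per Mb in bins of 1 Mb; the bars follow a nearly level course, and the red points lie in both arms and the centre.

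Of 2731 protein-coding genes on X, 17 had a thresholded peak in their promoter window, 293 (10.7%, 95% interval 9.62% to 11.9%) a thresholded or upper-tier peak, and 689 (25.2%) any of the 2428 peaks. Those shares are the background for the gene lists that follow. There a gene is called bound when its window held a thresholded or upper-tier peak. The word is a label only, since upper-tier peaks did not pass the authors' threshold. Of the upper-tier X peaks, 70.4% overlapped a peak in both replicate lists, and whether NHR-11 bound these genes was not tested. Genes of a list differ in spacing and in how many share a window, and no list was tested.

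Among genes of transcriptional control, 7 of 27 nuclear hormone receptor genes were bound (25.9%, 13.2% to 44.7%). The strongest were nhr-32 (pooled signal 25.7; 9.65 in replicate 1 and 14.6 in replicate 2), daf-12 (21.1; 16.4 and 3.16), the receptor for dafachronic acids that decides between reproductive growth and dauer arrest, and nhr-48 (20.6; 8.9997 and 9.27). Of 3 heterochronic regulators, which time larval cell fates, daf-12 and lin-14 were bound, with the lin-14 peak 733 bp upstream of its 5′ end (19.1; 11.8 and 12.01).

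Of 25 homeobox genes, 1 was bound, ceh-89 (11.9; 9.22 and 3.16), and 7 had any of the peaks. Of 19 genes of the helix-loop-helix, GATA, T-box and forkhead families, 3 were bound, fkh-2 (12.96), fkh-9 (11.9) and mxl-3 (11.9). The intervals of these lists were wide, 0.710% to 19.5% for the homeobox genes and 5.52% to 37.6% for the other families.

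Among the X signal elements and their target, which count X chromosomes and set the sex of the animal, 0 of 4 were bound and 1 of 4 had any peak, against 10.7% and 25.2% of all X genes. Of the X signal elements, which repress the switch gene xol-1 according to X dose, fox-1, an RNA-binding protein, had a middle-tier peak 258 bp upstream (10.1; 6.07 in replicate 1 and 4.81 in replicate 2). The promoter windows of sex-1, itself a nuclear receptor, of ceh-39 and of xol-1 held none of the peaks, and sex-2 was not analysed. Of the 3 X-linked genes listed under dosage compensation, sdc-2, which directs the complex to X, had an upper-tier peak 374 bp upstream (23.8). This peak was overlapped in replicate 1 (17.96) but not in replicate 2. The promoter windows of sdc-1 and dpy-22, the others on the list, held none of the peaks.

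Structural and neuronal genes were read in 6 lists, whose intervals were wide. Of 14 muscle genes, 5 were bound (35.7%, 16.3% to 61.2%), led by act-4, an actin (21.02; 8.22 in replicate 1 and 8.40 in replicate 2), and by the troponin T genes mup-2 (19.1; 6.24 and 11.3) and tnt-2 (13.97; 13.9 and 6.34). Of 21 genes of synapses and axon guidance, 4 were bound, led by syd-2, the liprin-alpha of presynaptic assembly, with a thresholded peak (34.7; 20.3 and 12.2), then unc-115 (17.8) and sax-3, the Robo receptor (12.2, in replicate 1 only).

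Of 63 ion channel genes, 4 were bound (6.35%, 2.50% to 15.2%). The strongest were irk-3 (13.7), glr-6 (13.4, in replicate 1 only) and lgc-47 (12.99, in replicate 1 only). Of 37 neuropeptide and insulin genes, 3 were bound, ins-39 (38.8, with the core), nlp-45 (14.5) and ins-9 (12.1, in replicate 1 only). Of 45 cuticle collagen and molting genes, 1 was bound, dpy-7 (13.3; 5.22 and 5.93), and of 36 chemosensory receptor genes none was (0%, upper bound 9.64%), with 2 that held a weaker peak.

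Among genes of general cell function, vha-12, a subunit of the proton-pumping vacuolar ATPase, had a thresholded peak (29.04; 15.3 in replicate 1 and 7.53 in replicate 2) and vha-15 an upper-tier one (15.1, in replicate 1 only), of 3 such genes. The translation factor gene eef-1A.2 (26.5; 15.2 and 14.2) and the ribosomal protein gene rpl-11.2 (22.5; 14.8 and 5.32) were bound, of 5 genes of translation. Of 17 lipid genes 3 were bound, acs-17 (18.9), the yolk protein gene vit-3 (13.2) and acs-22 (12.9, in replicate 2 only), and of 14 genes of the cytochrome P450, UGT and GST families 2, gst-36 (14.6) and ugt-50 (11.9). The 14-3-3 list held 1 X gene, ftt-2, described with the strongest peaks.

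The distance rule had few peaks near its limit. The nearest summits kept, at 510, 510 and 521 bp from a miRNA or tRNA gene, had pooled signals of 13.3, 18.3 and 9.20. Those just inside the limit and left out, at 477, 492 and 498 bp from a tRNA gene, had 11.4, 10.9 and 12.2. None of these 6 was thresholded.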

How the data were processed

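The files analysed were peak lists of TF ChIP-seq on build ce11: 1 list for each of 2 replicates, 1 for both pooled, and a thresholded list. Per the labels, libraries had a size range of 150 to 350 bp. Per the description deposited with the lists, peaks were called on alignments against a control alignment, not analysed here, and the thresholded list derives from the other lists. The aligner and caller were not given in the sources used here. Each deposited peak gives a signal value on the authors' own scale, with unknown depth, and a summit offset. The position of the summit set each peak's place.

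Summits were placed against the Ensembl 115 annotation, and sequence was read from the RefSeq genome of WBcel235 (ce11), with Python 3.11.15, pandas 2.3.3 and scipy 1.17.1. X peaks away from short RNA genes and outside the thresholded list were cut into 3 tiers of equal number by pooled signal. The same signal limits were applied to the autosomal peaks, whose tiers are therefore not of equal number. An overlap of 1 bp counted as shared between lists. With 1 group, no test between conditions could be made: shares carry 95% Wilson intervals, which cover counting error over peaks, and correlations across peaks carry no p. The replicates were not compared as groups. The code was tested on simulated data.

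The peaks and the gene and motif lists were chosen with earlier results of these data known. Genes named were those of the 20 strongest X peaks and the 3 strongest bound genes of each of 17 lists. Whatever their values, the X signal elements and the X genes listed under dosage compensation were named too. Alternatives were other distance rules, promoter windows, overlaps and windows, merged peaks and single replicate lists. Files on ce10 were used only for 1 count.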

Additional observations from a re-analysis of the deposited data

How the results depend on the processing

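Of 49 alternatives, 37 gave a value inside the 95% interval of the value reported. Over all 2428 X peaks the G and C difference between summits and flanks was 1.63 points. With no distance rule, the share of X peaks found in both replicate lists was 50.9%, the share in the thresholded list 2.73% and the G and C difference 2.05 points. The promoter share was 17.8% with a window of 500 bp upstream to 100 bp downstream and 46.4% with 2000 bp upstream to 500 bp downstream, and the share outside promoter windows and intergenic was 31.8% and 18.5%. Shared peaks made up 38.96% when at least 0.5 of the peak had to be covered and 24.2% when summits had to lie within 100 bp. A window of the central 0.5 of X, a longer stretch by construction, held 53.4%. With 1 replicate's list in place of the pooled list, the G and C difference ranged from 0.854 to 1.70 points, the lower value coming from the list of replicate 2, and the X share of peaks from 18.3% to 19.7%; the promoter share ranged from 31.8% to 32.4%, the intergenic share from 26.8% to 27.7%, and the central of 3 equal parts of X from 35.3% to 35.8%. The core share among thresholded X peaks, tried under settings chosen after seeing the data, ranged from 11.1% with no distance rule to 27.3% anywhere in the peak, and was 13.6% in the list of replicate 1 and 11.4% in that of replicate 2. No paired analysis was possible because all samples belong to 1 group. Depth is unknown, so how far it limits weak peaks was not tested.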
